A study of Mus musculus with 2 samples.

Results

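Kallikreins, clade B serpins and the other proteases and protease inhibitors that control shedding of the epidermis were examined in cultured primary keratinocytes, the cells that build this tissue. The list named 37 genes, and a gene's values were those of probe sets annotated with its symbol alone. Of the 18193 genes that the arrays represented in this way, 33 were on the list, with 48 probe sets. Klk14, Serpinb3b, Serpinb3c and Serpinb3d had no probe set of their own symbol. They have no signal values here and enter only the search of promoter sequences.

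One culture came from newborn C57BL/6 mice described as wild-type in the source label and MED1flox/flox in the title, and served as the control. The other came from newborn C57BL/6 mice labelled MED1epi-/-, in which K5Cre, a Cre recombinase under the keratin 5 promoter, was combined with MED1flox/flox. By the control's title and this description, both groups carried floxed alleles. MED1 is a subunit of Mediator, which links transcription factors to RNA polymerase II. RNA of either culture went onto 1 Affymetrix expression array. With 1 array per group there is no replicate, no test and no spread between cultures, the number of arrays limits the precision, and every difference below is between these 2 arrays. How many mice were pooled for a culture is not stated in the labels.

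Shedding of the stratum corneum, called desquamation, depends on proteases that cut the desmosomal proteins holding the outermost cells together. The trypsin-like kallikrein KLK5 and the chymotrypsin-like KLK7 are the best known of these, and the Kazal-type inhibitor LEKTI, the product of Spink5, keeps them in check. A membrane-anchored cascade of matriptase (St14) and prostasin (Prss8) is restrained by the Kunitz-type inhibitors HAI-1 (Spint1) and HAI-2 (Spint2). Lysosomal cathepsins and their cystatin inhibitors act alongside during cornification. The clade B serpins, most of which stay inside the cell, include inhibitors of serine or cysteine proteases.

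Signals are MAS5 intensities on a linear scale in arbitrary units. Values under 67.7, the median of all probe sets other than controls, were raised to that floor before ratios were taken, and a gene below it on both arrays counts as not measured. Each gene is represented by its brightest probe set over both arrays, and log2 ratios are of the array labelled MED1-null over the control array. Where a pair of signals is given for a gene, the control array comes first. The pooled SD of log2 ratios between probe sets of the same gene was 0.31 over 4916 genes, or 1.24-fold. It covers probe sets and not cultures.

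The targeted gene ran against its label. Med1 read 462.7 and 1039 in that order, and its 6 measured probe sets, of 7, were all higher in the second culture. The labels do not say which part of the gene is deleted, and a probe set outside that part checks nothing, so the second array is named throughout by its label. Sex-linked RNA also differed, with Xist at 5461 and 55.7 and the Y-linked Eif2s3y at 4.2 and 2164. Sex and genotype label therefore cannot be told apart in any difference below. Of 10 keratinocyte markers, 7 were measured, with log2 ratios from 0.16 to 0.81 and a median of 0.26 (Krt14 at 32905 and 36849). Krt1 and Krt15 were below the floor on both arrays. Summed signals take every listed marker with a probe set as deposited, also where it lay below the floor. The sum of the melanocyte markers, 8 of 8 measured, was 25056 and 19507. That of the fibroblast markers, 8 of 10 measured, was 1059.8 and 745.8, with Col1a1 below the floor on both arrays. Of these 8, 6 had log2 ratios below 0, while Col1a2 (0.52) and Col6a3 (0.40) were above. Col3a1, Dcn, Twist2 and Thy1 were below the floor on the second array, so their ratios are bounds. Leukocyte, mast cell and endothelial markers were mostly unmeasured, with 7 of 10, 5 of 6 and 4 of 5 below the floor on both arrays, and summed to 459.9 and 525.8, 186.7 and 183.1, and 206.6 and 174.1. No marker was at 0. The part of melanocytes and fibroblasts in the results below was not tested, and fewer cells of a type cannot be told apart from less RNA per cell.

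The protease system did not move as a block between the arrays. The inhibitors Slpi and Serpinb3a had the lowest ratios, followed by the protease Prss8 and the inhibitor Serpinb8. The protease Klk6 and the inhibitor Cst6 were higher. Of the 29 measured members, 2 reached 2-fold upwards and 4 downwards, together 20.7%. Over all 11621 measured genes the share beyond 2-fold was 3.86%, made up of 1.63% higher (190 genes) and 2.23% lower (259 genes). After lowess scaling the split was 140 and 326 genes, with the same 6 members beyond 2-fold. Without a floor, where dim probe sets enter, the share was 22.7% of all genes and 21.2% of members, so the members' higher share was not seen under that setting. The other 23 members did not reach 2-fold (for Klk12 and Serpinb6b, below the floor on 1 array, this is only a bound), and these same 23 fell between percentiles 5 and 95 of all measured genes, at log2 ratios of -0.71 and 0.71. Below 0 were 21 of 29 members, or 72.4%, against 42.9% of all measured genes, and the median log2 ratio was -0.16 against 0.06. With 1 array per group these shares describe the 2 arrays and say nothing of how replicate cultures would vary. The list and the threshold were chosen with earlier results of these data known, so the members' higher share is not an independent finding. Klk13, Serpinb1a, Serpinb9 and Serpinb12 were below the floor on both arrays and enter none of these counts.

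**Figure D1:**
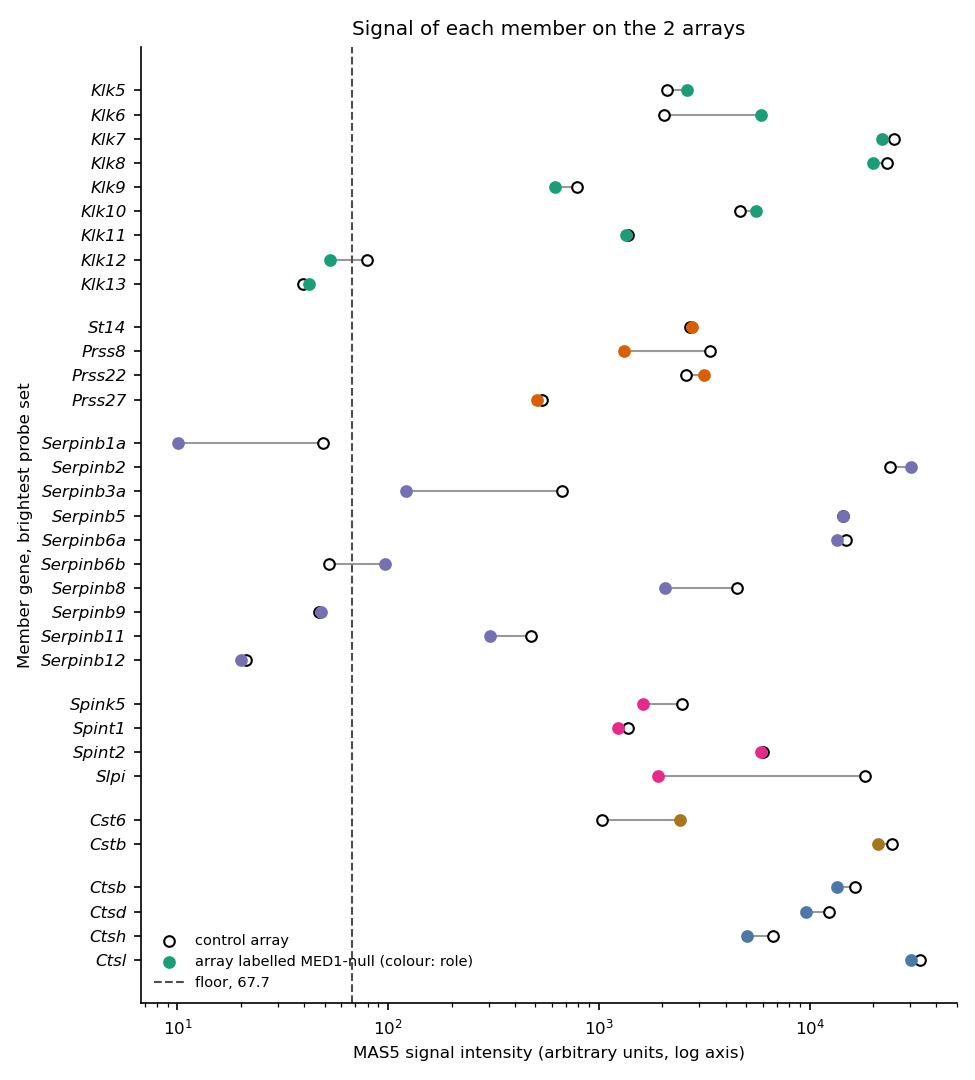
MAS5 signal (arbitrary units, log axis) of the brightest probe set of each of the 33 members with a probe set, on the control array (open circles) and the array labelled MED1-null (filled circles, coloured by role), joined by a line; the dashed line is the floor of 67.7. Slpi has the longest line among members above the floor, from 18294 to 1903, while 4 members lie left of the floor on both arrays.

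**Figure D2:**
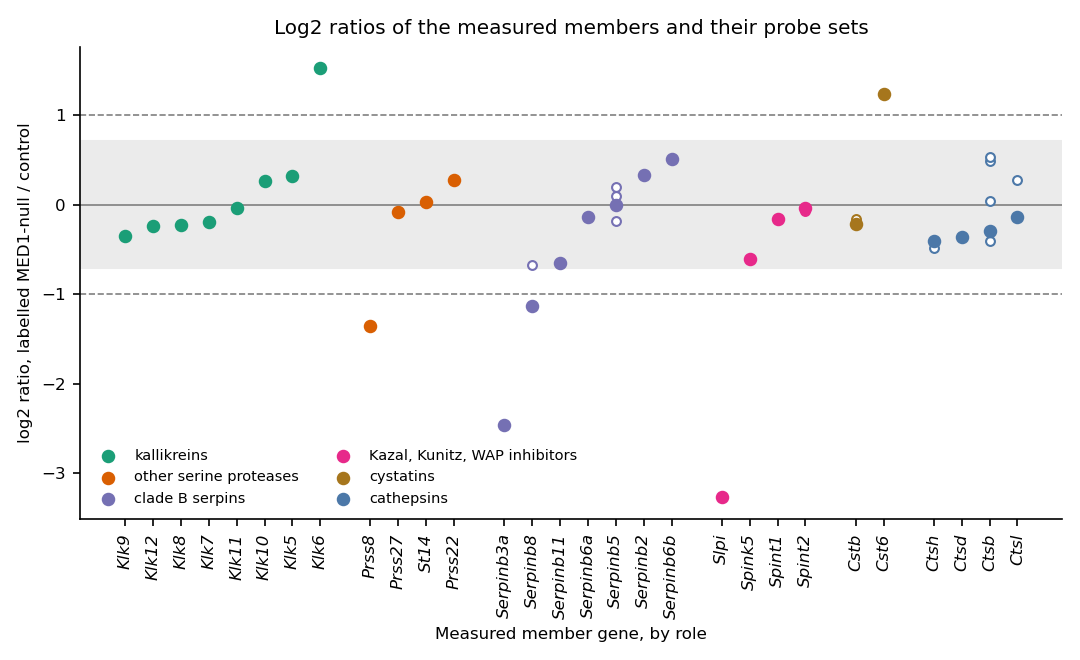
Log2 ratios of the 29 measured members by role; filled circles are the probe sets used, open circles the other measured probe sets of the same gene, dashed lines mark 2-fold and the grey band percentiles 5 to 95 of all measured genes. Klk6 and Cst6 lie above the upper dashed line, and Prss8, Serpinb3a, Serpinb8 and Slpi below the lower one.

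Among the kallikreins, secreted serine proteases encoded side by side on chromosome 7, Klk6 stood apart from the rest. Klk6, whose product is a trypsin-like protease, read 2034 and 5849.7. It was 2.88-fold higher (log2 ratio 1.52), and 36 of the 11621 measured genes, itself included, had a ratio that high or higher. The 6 other kallikreins above the floor on both arrays lay within 1.27-fold, with log2 ratios from -0.35 to 0.32. Klk5 read 2105 and 2633 (log2 ratio 0.32), and Klk7 read 25225 and 22025 (log2 ratio -0.20). The pair known for cutting corneodesmosomes thus differed in direction, each by about the size of the spread between probe sets of a gene or less. Klk8, which encodes the serine protease neuropsin, read 23293 and 19916 (log2 ratio -0.23). Klk10 read 4653 and 5581 (log2 ratio 0.26), Klk9 787.9 and 618.9 (log2 ratio -0.35), and Klk11 1382 and 1347 (log2 ratio -0.04). Klk12 was near the floor, at 79.7 and 53.0, which gives only a bound of at least 1.18-fold lower (log2 ratio -0.59 with no floor). Klk13 read 39.6 and 42.3, below the floor on both arrays. Of the 8 measured kallikreins, 3 were above 0 and 5 below, and the median of -0.12 and the mean of 0.13 differed in sign, with Klk6 the only one beyond 2-fold.

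The order of the genes along the chromosome, taken from the RefSeq gene table of GRCm38.p6, placed Klk6 between genes within 2-fold. Its neighbours are Klk7 on one side and Klk5 on the other. The log2 ratio of Klk6 exceeded that of Klk5 by 1.20 and that of Klk7 by 1.72. Beyond Klk5 lie Klk4, below the floor on both arrays at 32.3 and 27.4, and then the glandular kallikreins, of which Klk1b21 (70.3 and 106.8) and Klk1 (206.5 and 319.8) were measured. The Klk1 value rests on a probe set whose suffix marks sequence shared with other transcripts. All other probe sets of Klk1 were below the floor on both arrays. Klk6 had 1 probe set, so that no second one bears on its value.

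**Figure D3:**
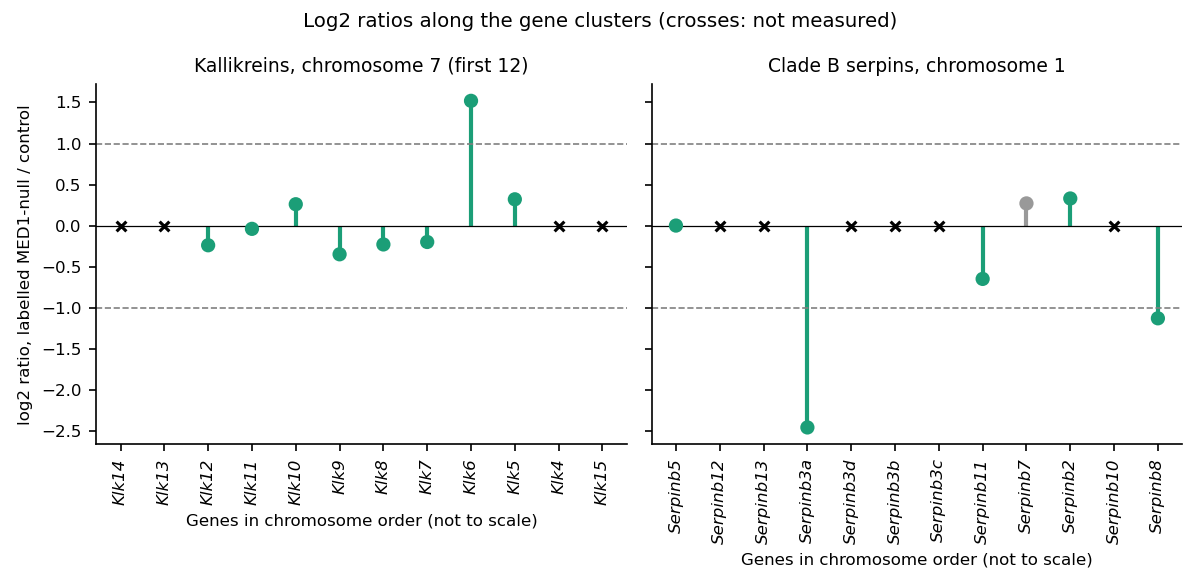
Log2 ratios in chromosome order (spacing not to scale) for the first 12 genes of the kallikrein cluster on chromosome 7, left, and the clade B serpin cluster on chromosome 1, right; green marks members, grey other genes, crosses genes not measured, and dashed lines 2-fold. Klk6 at 1.52 lies between Klk7 at -0.20 and Klk5 at 0.32, and Serpinb3a at -2.46 and Serpinb8 at -1.13 lie below genes nearer 0 in the same cluster.

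Of the matriptase and prostasin pathway, the member that differed was prostasin. Prss8 encodes this membrane-anchored channel-activating protease, which is needed for the epidermal barrier. It read 3385 and 1323, 2.56-fold lower in the second culture (log2 ratio -1.36). Of the 11621 measured genes, 117 had a ratio that low or lower. St14, which encodes matriptase, read 2705 and 2758, a log2 ratio of 0.03, so that the ratio of Prss8 was 1.38 lower than that of its partner on the log2 scale. Spint1 read 1380 and 1232, and Spint2 read 6038 and 5857 (log2 ratios -0.16 and -0.04). Both probe sets of Spint2 lay between -0.07 and -0.04. Prss22 and Prss27, which encode further trypsin-like proteases, read 2605 and 3138 (log2 ratio 0.27) and 534.5 and 506.6 (log2 ratio -0.08).

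The epithelial sodium channel, which prostasin activates, was listed among cleavage targets. Its 3 listed subunits had log2 ratios below 0. Scnn1b read 774.5 and 226.3 (3.42-fold lower, and a log2 bound of -0.83 with the floor at 434.6), Scnn1g read 1423 and 541.3 (2.63-fold lower), and Scnn1a read 605.4 and 390.1 (log2 ratio -0.63, within 2-fold).

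Of the 4 members beyond 2-fold on the lower side, 2 were clade B serpins. Serpinb3a, a relative of the human squamous cell carcinoma antigens that inhibit serine or cysteine proteases, read 668.5 and 121.6. That is 5.5-fold lower (log2 ratio -2.46), and 13 of the measured genes had a ratio that low or lower. The value rests on 1 probe set whose suffix marks sequence shared with other transcripts, and the paralogs Serpinb3b, Serpinb3c and Serpinb3d, its neighbours, had no probe set of their own symbol. Signal of these paralogs in the Serpinb3a value cannot be told apart from its own. With such probe sets left out Serpinb3a has no value, and with the floor at the 75th percentile, 434.6, its log2 ratio was only a bound of -0.62. Serpinb8, an inhibitor of the proprotein convertase furin, read 4515 and 2058 by the probe set used, 2.19-fold lower (log2 ratio -1.13). Its second probe set read 981.6 and 612.9 (log2 ratio -0.68), and the mean of both, -0.91, did not reach 2-fold. Furin itself read 1203 and 864.8, a log2 ratio of -0.48.

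The other measured clade B serpins did not reach 2-fold. Serpinb11 read 477.1 and 303.7, a log2 ratio of -0.65. Serpinb2, which encodes plasminogen activator inhibitor type 2, a protein also built into the cornified envelope, read 24106 and 30375, a log2 ratio of 0.33. Serpinb5, which encodes the tumour suppressor maspin, read 14466 and 14459, and its 4 probe sets ran from -0.18 to 0.20. Serpinb6a read 14854 and 13439 (log2 ratio -0.14). Serpinb6b, at 52.6 and 96.6, was above the floor on 1 array and gives a bound of at least 1.43-fold higher. Below the floor on both arrays were Serpinb1a, an inhibitor of neutrophil elastase (49.0 and 10.1), Serpinb9, an inhibitor of granzyme B (47.2 and 48.0), and Serpinb12 (21.2 and 20.0). The median of the 7 measured serpins was -0.14, with 5 below 0 and 2 above.

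Slpi, a secreted inhibitor of leukocyte elastase and cathepsin G that also inhibits KLK7 and belongs to the whey acidic protein (WAP) family, had the lowest ratio of any member. It read 18294 and 1903, which is 9.61-fold lower in the second culture (log2 ratio -3.27). Only 1 measured gene, Xist, had a lower ratio. Spink5 read 2487 and 1628, 1.53-fold lower (log2 ratio -0.61). Both target proteases had a higher log2 ratio than Spink5, Klk5 by 0.93 and Klk7 by 0.42. The 4 Kazal, Kunitz and WAP inhibitors were below 0, with a median of -0.39, although Spint2 came to 0.00 after quantile normalization. The leukocyte proteases Elane, Ctsg and Prtn3 were below the floor on both arrays (Elane at 14.4 and 36.8, Ctsg at 38.7 and 3.9). So were 7 of the 10 leukocyte markers, Ptprc (27.7 and 7.8) among them. Csf1r (164.0 and 228.9) and Lyz2 (104.0 and 121.5) were above it on both arrays, and Cd74 (71.9 and 58.9) on the control array only. Slpi and Spink5 each rested on 1 probe set.

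Cystatins inhibit cysteine proteases, and the 2 members went opposite ways. Cst6, which encodes cystatin M/E, an inhibitor of cathepsin L and legumain, read 1030.1 and 2423, 2.35-fold higher in the second culture (log2 ratio 1.23). Of the measured genes, 88 had a ratio that high or higher. Cstb, which encodes stefin B, read 24587 and 21179.9 (log2 ratio -0.22), and its second probe set gave -0.16. The targets of cystatin M/E were both below 0 by the probe sets used. Ctsl read 33393 and 30317 (log2 ratio -0.14), and Lgmn, which encodes legumain, read 1182 and 799.6 (log2 ratio -0.56). By these probe sets the log2 ratio of Ctsl was 1.37 below that of Cst6, and that of Lgmn 1.80 below. A dimmer probe set of Ctsl gave 0.27, and the mean of both was 0.07.

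The 4 cathepsins were all slightly lower by the probe sets used, with a median of -0.33 and none beyond 2-fold. Ctsd, the aspartic protease of the lysosome, read 12363 and 9624 (log2 ratio -0.36), and Ctsh, a cysteine aminopeptidase, read 6711 and 5067 (log2 ratio -0.41), with -0.48 by its second probe set. The probe sets of Ctsb, which encodes the cysteine protease cathepsin B, disagreed. The brightest pair read 16503 and 13475 (log2 ratio -0.29) and 16994 and 12804 (log2 ratio -0.41). The other 3 had log2 ratios of 0.04, 0.49 and 0.53, with control signals of 553.8, 236.1 and 132.7. Ctsl showed the same split, since its dimmer probe set read 358.2 and 432.5 (log2 ratio 0.27). Averaged over its probe sets, Ctsb came to 0.07, above 0, and so did Ctsl. Of the 7 members with several measured probe sets, the probe sets ran the same way in 4 and both ways in Serpinb5, Ctsb and Ctsl.

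**Figure D4:**
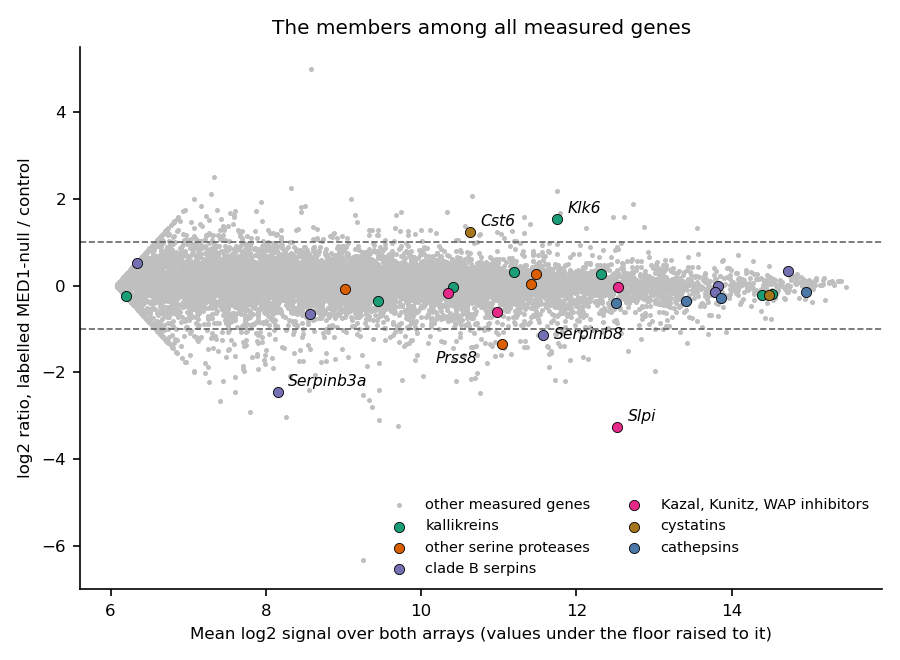
Log2 ratio against mean log2 signal over both arrays for all 11621 measured genes (grey) and the members (coloured by role), with dashed lines at 2-fold. The 6 labelled members lie beyond these lines, with Slpi at -3.27 farthest below 0, and the other 23 lie within the cloud between them.

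Promoter sequences are shown for the members at least 2-fold apart, since these are the genes whose values the results turn on. RefSeq promoters of GRCm38.p6 matched 28 of the 37 members and 4 of these 6 genes, with 2 starts for Klk6. Each sequence below gives the 250 bases before the annotated start, 5′ to 3′ in the direction of the gene. Capitals mark matches, on either strand, to TGANTCA (a pattern that takes in the AP-1 consensus, which has G or C in the middle, and also matches with A or T there), AGGTCA (the half-site of many nuclear receptors), TTGCNNCAA (a C/EBP type pattern) or TATAAA (the TATA box), and no matches overlapped in these 5 sequences.
Slpi (chr2:164356508-164356757, minus strand): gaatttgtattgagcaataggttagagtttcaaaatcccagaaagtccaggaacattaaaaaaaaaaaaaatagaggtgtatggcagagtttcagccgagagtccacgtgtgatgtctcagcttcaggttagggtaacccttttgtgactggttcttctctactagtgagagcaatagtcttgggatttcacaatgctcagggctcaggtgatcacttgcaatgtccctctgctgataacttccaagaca
Serpinb3a (chr1:107052304-107052553, minus strand): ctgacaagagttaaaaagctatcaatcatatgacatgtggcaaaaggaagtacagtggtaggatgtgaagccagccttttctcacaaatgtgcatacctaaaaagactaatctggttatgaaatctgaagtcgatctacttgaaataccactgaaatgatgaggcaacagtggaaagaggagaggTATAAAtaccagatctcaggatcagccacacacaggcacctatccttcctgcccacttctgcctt
Serpinb8 (chr1:107589756-107590005, plus strand): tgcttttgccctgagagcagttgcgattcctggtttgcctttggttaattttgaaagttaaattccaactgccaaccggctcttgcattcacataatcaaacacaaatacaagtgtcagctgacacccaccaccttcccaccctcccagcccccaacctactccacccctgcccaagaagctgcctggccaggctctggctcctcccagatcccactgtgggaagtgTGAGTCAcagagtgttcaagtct
Klk6, upstream start (chr7:43824294-43824543, plus strand): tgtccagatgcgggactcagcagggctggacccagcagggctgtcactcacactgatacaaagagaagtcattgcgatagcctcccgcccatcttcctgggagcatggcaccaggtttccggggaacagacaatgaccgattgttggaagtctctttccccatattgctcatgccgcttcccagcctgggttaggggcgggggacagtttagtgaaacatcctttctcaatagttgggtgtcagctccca
Klk6, downstream start (chr7:43825200-43825449, plus strand): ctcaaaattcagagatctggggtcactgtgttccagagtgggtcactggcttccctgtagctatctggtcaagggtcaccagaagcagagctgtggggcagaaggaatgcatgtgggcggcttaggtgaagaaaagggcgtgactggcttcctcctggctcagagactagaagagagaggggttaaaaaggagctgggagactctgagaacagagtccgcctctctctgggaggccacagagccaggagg

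In these windows Serpinb3a held 1 TATAAA, 65 bases before the start, and Serpinb8 held 1 TGAGTCA, 23 bases before the start. Slpi and both starts of Klk6 held none of the 4 patterns in these windows. Over all 32851 promoters in the table, TGANTCA was found in 6.75% of the 250-base windows, AGGTCA in 14%, TTGCNNCAA in 1.74% and TATAAA in 12.4%. Over the 33 promoters of the 28 matched members the shares were 18.2%, 15.2%, 0% and 24.2%. The matches were unevenly placed, since all lay in clade B serpin genes on chromosome 1 except 1 AGGTCA, in Ctsd. The shares count promoters, and the same TGAATCA of Serpinb2 was counted for 2 starts, 94 and 181 bases before them. The TATAAA match of Serpinb3d was TTTATA, on the opposite strand, and those of Serpinb12 lay 220 and 201 bases before its starts. Of the 9 clade B serpin members on chromosome 1, 5 held TGANTCA and 6 held TATAAA, while none of the 10 kallikreins held any of the 4 patterns. Serpinb3b, Serpinb3c and Serpinb3d, which have no signal values here, were among the serpins with TATAAA and also held AGGTCA. Klk14, also without values, was among the kallikreins. A match is a run of letters and no evidence of binding.

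The TGANTCA matches of the other serpins on chromosome 1 are shown with 12 bases on either side, capitals marking the match, because the genes that hold them differed in ratio.
Serpinb11 (chr1:107362121-107362151, plus strand): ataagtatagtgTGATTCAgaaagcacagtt
Serpinb11 (chr1:107362226-107362256, plus strand): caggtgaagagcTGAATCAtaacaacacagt
Serpinb12 (chr1:106934392-106934422, plus strand): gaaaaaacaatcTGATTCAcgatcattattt
Serpinb2 (chr1:107511317-107511347, plus strand): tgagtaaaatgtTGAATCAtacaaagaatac
Serpinb5 (chr1:106861023-106861053, plus strand): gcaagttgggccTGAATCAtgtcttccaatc

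The genes with this pattern did not share a direction. Serpinb8 was 2.19-fold lower, Serpinb11 stood at -0.65, Serpinb5 at a log2 ratio that rounds to 0.00 from below, and Serpinb2 at 0.33, while Serpinb12 was not measured. Only Serpinb8 held TGAGTCA, a form of the AP-1 consensus, and the others held TGAATCA or TGATTCA, which are not.

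Related genes outside the list were examined in 8 groups of 177 genes in all, of which 78 were measured. Beyond 2-fold were 1 on the higher side and 7 on the lower, together 10.3% against 3.86% of all measured genes. These groups too were chosen with earlier results of these data known, so that share is not an independent finding. The median log2 ratio was -0.14 against 0.06, and 70 of the 78 did not reach 2-fold, 10 of them as bounds from a signal below the floor on 1 array. The group that held most of the differences was that of cleavage targets and receptors, with 5 of 23 measured genes beyond 2-fold. Cdsn, which encodes corneodesmosin, the adhesion protein cut by KLK5 and KLK7, read 11198 and 4738 (2.36-fold lower). Its log2 ratio was 1.05 below that of Klk7 and 1.56 below that of Klk5. Dsg1a, a desmoglein gene, was 2.24-fold higher at 101.2 and 227.1, while its paralog Dsg1b stood at 875.5 and 453.2 (log2 ratio -0.95). These are close paralogs, each measured by 1 probe set, and the 2 values went opposite ways. Dsc1, which encodes desmocollin 1, read 778.7 and 1372 (log2 ratio 0.82), and Tslp, a cytokine released when protease-activated receptor 2 is engaged, read 290.0 and 534.7 (log2 ratio 0.88). Pkp2, which encodes the desmosomal plaque protein plakophilin 2, read 481.2 and 221.2 (log2 ratio -1.12) by a probe set marked as sharing sequence. Its second measured probe set read 339.2 and 187.1 (log2 ratio -0.86), and the mean of both, -0.99, did not reach 2-fold.

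Further proteases mostly did not reach 2-fold. Of 17 measured lysosomal and cornifying proteases outside the list, 12 were below 0 and 5 above, and the median was -0.16. Ctsf read 136.4 and, below the floor, 41.7, a bound of at least 2.01-fold lower. Ctsc, which encodes the dipeptidyl peptidase that activates granule proteases, read 2155 and 1134 (log2 ratio -0.93), with a bound of -0.73 by its other measured probe set. Ctsw gave a bound from 110.7 and 40.8 (log2 ratio -0.71). Capn12 (log2 ratio 0.76), Ctsa (0.29) and Capn2 (0.28) had the highest log2 ratios of this group. Asprv1, which encodes the protease that processes profilaggrin, read 17046 and 19038 (log2 ratio 0.16), and Casp14, the caspase of cornification, read 600.8 and 519.7 (log2 ratio -0.21).

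Of the 15 measured epithelial and immune serine proteases, 14 were above the floor on both arrays and within 2-fold. Cela1 read 80.4 and, below the floor, 13.7, a bound of at least 1.19-fold lower, and the median log2 ratio of the 15 was -0.25. Prss12 read 1280.0 and 649.8 (log2 ratio -0.98), Prss23 read 7585 and 4306 (-0.82), and Furin stood at -0.48. Its highest log2 ratios were those of the mitochondrial protease gene Htra2 (0.56), Htra3 (0.45) and Tmprss11e (0.39). The probe sets of Htra2 went both ways, from -0.07 to 0.56, and those of Prss23 ran from -0.82 to -0.06. Those of Tmprss2 ran from -1.08 to -0.22. Its probe set used gave -0.26, while one marked as sharing sequence was 2.12-fold lower.

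Related inhibitors had fewer measured genes. Of serpins outside clade B, 4 of 22 were measured and 2 were at least 2-fold lower. Serpina3n read 163.5 and 74.7 (log2 ratio -1.13), and Serpinf1, which encodes pigment epithelium-derived factor, read 140.3 and 29.1, a bound of -1.05, and 81.3 and 15.8 by its second probe set, a bound of -0.26. Serpinh1, which encodes a collagen chaperone, read 5112 and 3665 (log2 ratio -0.48), and Serpind1 gave a bound of 0.64 from 40.6 and 105.5. Of the 4 measured clade B serpins outside the list, Serpinb6c read 2015 and 1064 (log2 ratio -0.92), and Serpinb1b, Serpinb7 and Serpinb6e stood at 0.41, 0.27 and 0.04. The probe sets of Serpinb6c and Serpinb6e are marked as sharing sequence. Of 5 measured cystatins and stefins, 4 were below 0, led by Csta1 (4486 and 2914, log2 ratio -0.62), Stfa2l1 (511.3 and 337.1, log2 ratio -0.60) and Fetub (a bound of -0.41), while Stfa3 read 2549 and 2605 (0.03) and Cst3 stood at -0.16. These are families of close copies in the mouse, so the values of Csta1, Stfa2l1 and Stfa3 are uncertain as to gene. None of the 8 measured Kazal, Kunitz and WAP inhibitors outside the list reached 2-fold, 5 of them as bounds. Of these, Wfdc18 (94.6 and 148.2, log2 ratio 0.65) and Wfdc2 (2509 and 2699, 0.11) were above 0, as were Wfdc15b (a bound of 0.36) and Wfdc3 (a bound of 0.26), while Reck and Wfdc1 gave bounds of -0.37 and -0.35 and Spink2 stood at -0.29.

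**Figure D5:**
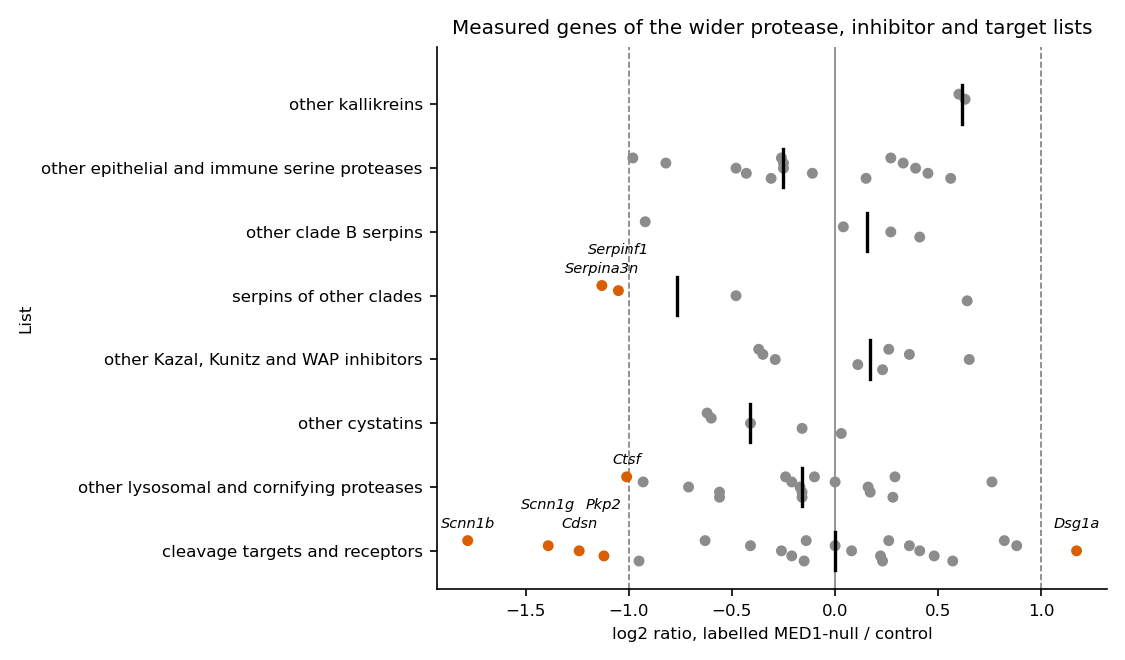
Log2 ratios of the 78 measured genes in the 8 groups of related genes outside the list; orange points are at least 2-fold apart and named, black bars are group medians and dashed lines mark 2-fold. Scnn1b at -1.78, Scnn1g at -1.39, Cdsn at -1.24 and Pkp2 at -1.12 lie left of the line among cleavage targets, and Dsg1a at 1.17 lies right of it.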

How the data were processed

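Values were the intensities the authors deposited, 1 MAS5 signal per probe set and array, on a linear scale, from Affymetrix GeneChip Operating Software on a mouse genome array, per the submitters' processing notes and the labels' design text. The trimmed mean (2% off either tail) was 499.8 on both arrays, as after scaling to a shared target. MAS5 takes mismatch probes into account, and its lowest values are imprecise, so a floor was set. Detection calls were left aside, and the software's version is not stated in the labels.

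Of 45101 probe sets, 64 were controls, 34945 had 1 symbol in GEO's platform annotation, 932 several and 9160 none. Only those with 1 symbol were used. Members, role groups, lists and thresholds were chosen with earlier results of these data known. Genes named were Med1, all members, up to 3 per direction of each related group, and markers, and further related genes (such as Scnn1a, Dsg1b, Furin, Asprv1, Casp14, Elane, Ctsg and Prtn3) were named after their values were seen. Counting was tested on simulated arrays whose changes were larger than 2-fold and set only in genes well above the floor. That test does not cover dim genes or ratios near 2-fold. Alternatives were 3 other floors (none among them), 3 rescalings, 2 other choices of probe set and a 1.5-fold threshold. Python 3.11.15, pandas 2.3.3 and statsmodels 0.14.6 were used.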

Additional observations from a re-analysis of the deposited data

How the results depend on the processing

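No paired analysis was possible because each group has 1 array. Of the 6 members beyond 2-fold, Slpi, Prss8, Klk6 and Cst6 were beyond it in the same direction under all 9 alternatives. For these genes only the 3 rescalings could change the outcome. Each has 1 probe set, not marked as shared, with signals above every floor tried on both arrays. A 1.5-fold threshold cannot lose a gene beyond 2-fold. Serpinb3a was lost with the floor at the 75th percentile (434.6) and had no value without probe sets marked as shared, and Serpinb8 was lost with the mean over probe sets. The median log2 ratio of the members lay between -0.23 and -0.14 under all 8 alternatives that give one. Members below 0 numbered 18 of 29 (62.1%, against 40.9% of all genes) with the mean over probe sets, where Ctsb came to 0.07. With the median ratio set to 0 they numbered 22 of 29 (75.9% against 50.8%). After quantile normalization there were 19 (65.5% against 47.3%), and after lowess scaling 20 (69% against 49.3%). St14, Spint2 and Serpinb5 lay near enough to 0 to change side with the scaling. Related genes outside the list depended on the floor. With it at the 25th percentile (18.1), 9 were at least 2-fold higher and 14 lower, and with no floor 22 and 21 of the 137 with a probe set. More genes count as measured at these settings, and of all genes 12.8% and 22.7% then passed 2-fold. At the higher floor of 434.6 the counts were 0 and 2, and Scnn1b (-0.83) and Pkp2 (-0.15) were lost. Dsg1a, Serpina3n, Serpinf1 and Ctsf were below that floor on both arrays and so not measured. Pkp2 was also lost with the mean over probe sets (-0.99) and without probe sets marked as shared (-0.86), and Serpinf1 with the mean (-0.66). Of all genes, 12.8% passed 2-fold at the lower floor, 22.7% without one and 2.22% at the higher one, against 21.2%, 21.2% and 18.5% of members, so without a floor the members' share was below that of all genes. Serpinb1a joined the members beyond 2-fold at the lower floor and without one. At 1.5-fold, Spink5 and Serpinb11 also passed, giving 8 of 29 members (27.6%) against 15.1% of all genes. Signal near the floor limits Klk12 and Serpinb6b, whose log2 ratios were -0.59 and 0.88 with no floor.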
